A study of Homo sapiens with 24 samples.

Results

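The response of HK-2 cells to TGF-β1 was measured while an activator of soluble guanylate cyclase was present throughout. HK-2 is an immortalised human proximal tubular epithelial cell line, grown here in 6-well plates, deprived of serum overnight and then treated for 24 h in normoxia. Cells given TGF-β1 at 2 ng/mL together with BAY 60-2770 (5 libraries) were set against cells given BAY 60-2770 alone (3 libraries), so the activator was in every well of this comparison. These are 8 of the 24 poly(A) RNA-seq libraries of the series, chosen by their treatment labels. Cells with TGF-β1 alone and cells with the solvents (5 libraries each) gave the response without the activator. BAY 60-2770, called BAY from here on, binds the haem-free form of soluble guanylate cyclase and drives the synthesis of cyclic GMP. The labels give its dose as 1 mM, far above what is usual for such compounds and beyond what the stated dilution of its DMSO solvent could carry, so a misprint of the unit is possible. The labels do not say whether wells with BAY alone also received the solvent of TGF-β1, nor what separated the biological replicates of this cell line. The series text places the TGF-β1 treatments in another set of experiments than the treatments of the hypoxia experiment, and does not say from which set the libraries with BAY alone came. If that set differed, set and TGF-β1 cannot be told apart here.

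Each library held 87391989 to 105571250 counts with TGF-β1 and BAY and 89957159 to 104973565 with BAY alone. Levels are given in CPM, the counts of a gene per 1000000 counts of its library after scaling by TMM (trimmed mean of M values), and they are not divided by gene length, so they compare samples and not genes. Fold changes are log2 values from edgeR's quasi-likelihood test, and a gene was called at a Benjamini-Hochberg adjusted p below 0.05. A gene is said to have risen or fallen where it was called. Transcripts of the mitochondrial genome took 5.34% ± 0.325 of the counts with TGF-β1 and BAY and 7.39% ± 0.0519 with BAY alone (SD, n = 5 and 3). The 5 libraries with TGF-β1 and BAY fell into subsets on the first principal component of the variation within groups, replicates 1 and 2 against replicates 3 to 5. The group with TGF-β1 alone split at the same numbers and the solvent group into replicates 1, 2 and 5 against replicates 3 and 4. The 3 libraries with BAY alone lay from -2.03 to 1.03 on this component, against -15.9 to 11.1 with TGF-β1 and BAY. They were not cut into subsets, and all 3 entered the repeats with either subset. Subset 1 holds replicates 1 and 2 of each group that split and replicate 5 of solvent. What separates the subsets is not in the labels, and its part in the results was not tested beyond the repeats with each subset alone. The subsets were cut on the same expression values that those repeats test. A p-value from 1 subset therefore leaves out the spread between subsets and is small partly by construction.

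TGF-β1 is a secreted cytokine that binds a pair of receptor kinases. The active receptor phosphorylates SMAD2 and SMAD3, which enter the nucleus with SMAD4 and act on promoters together with other factors such as AP-1. The inhibitors SMAD7, SKIL and PMEPA1 are themselves targets of the pathway and limit it. In kidney tubule cells TGF-β1 is known to weaken epithelial junctions and tubular transport functions and to raise matrix genes. Cyclic GMP acts through its kinases and phosphodiesterases, and activators of its synthesis are studied for their effect on kidney fibrosis. In these bulk libraries, fewer cells of a kind and less RNA per cell cannot be told apart.

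With BAY present, TGF-β1 changed most of the measured transcriptome. Of 21639 genes tested, 13854 were called (64%), 6976 higher (32.2%) and 6878 lower (31.8%). A change of at least 2-fold was called for 4560 genes (21.1%), of which 1910 rose (8.83%) and 2650 fell (12.2%). The 5 libraries with TGF-β1 and BAY and the 3 with BAY alone did not overlap for 13566 genes (62.7%). The median log2 fold change over all tested genes was -0.03. The split between rises and falls rests on the TMM scaling: without it, on total counts alone, every log2 fold change moves by a median of -0.20, and 4830 genes were called higher (33.5% of the calls against 50.4%) and 9593 lower. Changes below that size therefore have no firm direction. Of the genes named in the text, ACVR2A, ADORA1, ATF6, CACNA1H, COL4A4, IL11RA, LMOD1, MT-ND6, SMAD1, THY1 and TIMP1 were no longer called when some 1 library was left out, and KEAP1, MT-ND6, SMURF2 and TIMP1 were not called on total counts.

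Rises and falls were ranked only among called genes without overlap between the groups. The 12 largest rises included matrix proteases, secreted ligands and cell surface receptors. All of them but MMP1 were below 1 CPM with BAY alone. MMP10, the protease stromelysin-2 (ENSG00000166670, chromosome 11, 102770503 to 102780628, GRCh38, GENCODE 29), had 205, 197, 186, 199 and 169.8 CPM with TGF-β1 and BAY, against 0.252, 0.215 and 0.447 CPM with BAY alone. The groups are far apart and narrow (log2 fold change 9.26, SE 0.216, edgeR adjusted p = 4.12e-16). IL7R, the receptor chain for interleukin-7, had 59.7, 62.3, 72.9, 66.4 and 65.2 CPM with TGF-β1 and BAY, against 0.0485, 0.102 and 0.131 CPM with BAY alone (log2 fold change 9.40, SE 0.156, edgeR adjusted p = 1.07e-18). In IL7R too, all libraries with TGF-β1 and BAY lay far above all with BAY alone. MMP1, interstitial collagenase, averaged 1287 ± 104 CPM with TGF-β1 and BAY and 5.63 ± 0.301 CPM with BAY alone (SD, n = 5 and 3), a rise of 7.83 on the log2 scale. LEFTY2, an extracellular antagonist of nodal and a member of the TGF-β superfamily, rose by 8.58, DRAXIN, a secreted axon guidance protein, by 7.86, and CHRNA9, a nicotinic acetylcholine receptor subunit, by 9.18. CH25H, cholesterol 25-hydroxylase, had 30.7, 30.0, 52.9, 58.3 and 49.0 CPM with TGF-β1 and BAY, against 0.00970, 0.0204 and 0.0175 CPM with BAY alone (log2 fold change 11.33, SE 0.662, edgeR adjusted p = 2.05e-10). With BAY alone CH25H averaged 0.0159 CPM and CHRNA9 0.0219 CPM, where 3 counts over that group make 0.00952 CPM. The fold changes of these genes thus rest on few counts, and their size is uncertain. Replicates 3 to 5 stood above replicates 1 and 2 for CH25H, the reverse of ANGPTL4, a lipoprotein lipase inhibitor with 44.2, 40.8, 16.2, 15.6 and 16.3 CPM with TGF-β1 and BAY, against 0.116, 0.0511 and 0.149 CPM with BAY alone (log2 fold change 7.94, SE 0.860, edgeR adjusted p = 5.94e-07). In both genes the subsets differed by less than the treatment groups. The log2 fold change of CH25H was 10.78 with subset 1 and 11.61 with subset 2, and that of ANGPTL4 was 8.60 with subset 1 and 7.21 with subset 2.

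For 2 further genes a fitted fold change is no measure, because the libraries with BAY alone held almost no counts. KANK4, a scaffold protein of the cell cortex, had 4114 counts over the 5 libraries with TGF-β1 and BAY and 0 over the 3 with BAY alone. Set against the 3 counts that a count of 0 allows over that group, it was at least 949.6-fold higher with TGF-β1 and BAY. CGB8, a chorionic gonadotropin beta gene, had 14491 counts with TGF-β1 and BAY and 2 with BAY alone, a ratio of 5017 with an exact 95% interval of 1389 to 41434 that covers counting error only. The CGB genes are near-identical copies, so reads may have been divided among them and the level of CGB8 itself is uncertain.

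**Figure D1:**
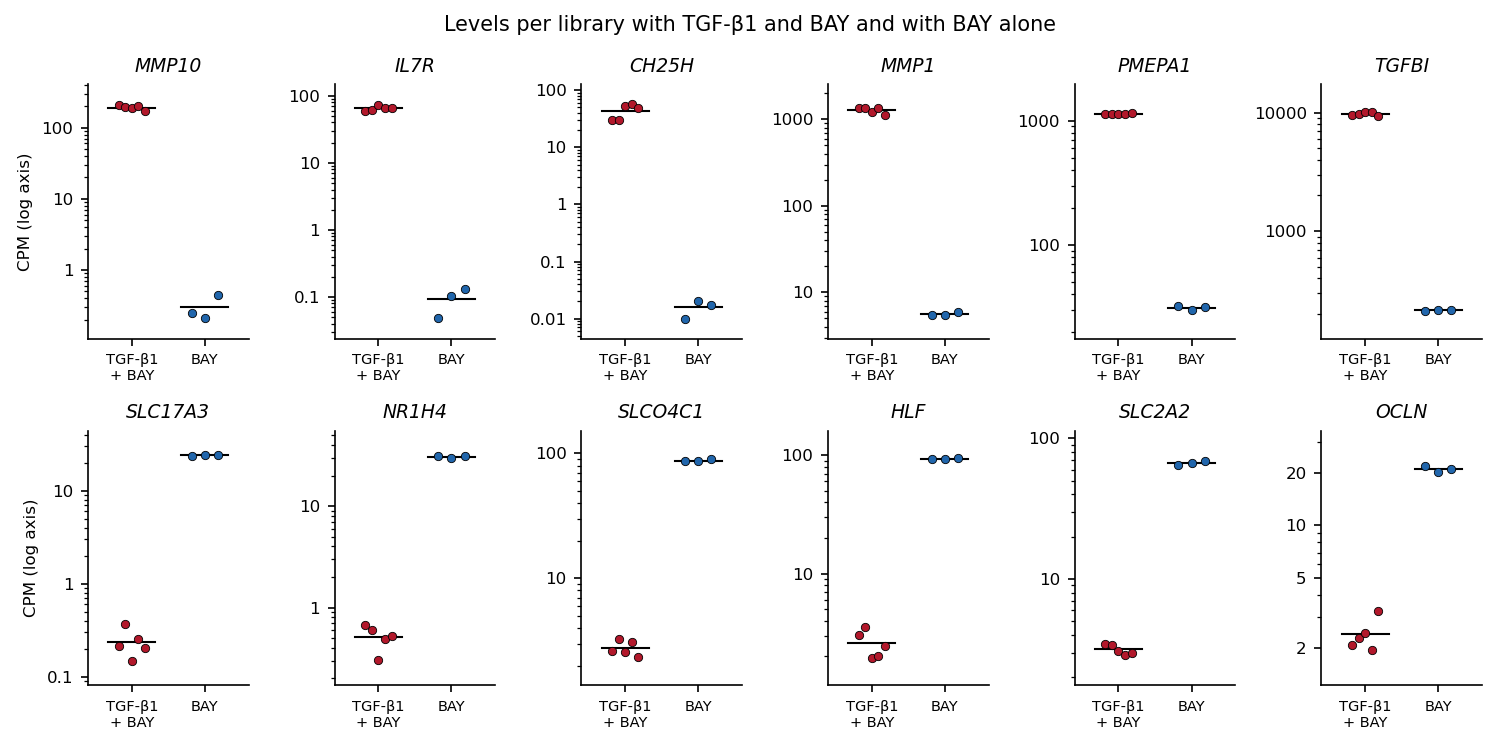
Level of 12 genes in each library, as CPM on a log axis, with the 5 libraries with TGF-β1 and BAY left of the 3 with BAY alone in every panel; points are libraries and bars are group means. MMP10, IL7R, CH25H, MMP1, PMEPA1 and TGFBI are higher with TGF-β1 and BAY, and SLC17A3, NR1H4, SLCO4C1, HLF, SLC2A2 and OCLN lower, with no overlap between the groups in any panel. For genes taken from the 12 largest rises or falls, lack of overlap was a condition of choice.

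The 12 largest falls included solute transporters, a channel, a gap junction gene and transcription regulators. SLC17A3, an organic anion and urate transporter, had 0.212, 0.371, 0.146, 0.255 and 0.201 CPM with TGF-β1 and BAY, against 23.5, 24.2 and 23.9 CPM with BAY alone (log2 fold change -6.64, SE 0.382, edgeR adjusted p = 8.21e-11). NR1H4, the bile acid receptor FXR, had 0.669, 0.608, 0.304, 0.487 and 0.520 CPM with TGF-β1 and BAY, against 31.2, 30.0 and 30.9 CPM with BAY alone (log2 fold change -5.88, SE 0.205, edgeR adjusted p = 3.14e-14). SLCO4C1, an organic anion transporter of the kidney, had 2.61, 3.26, 2.57, 3.07 and 2.35 CPM with TGF-β1 and BAY, against 86.2, 86.9 and 90.0 CPM with BAY alone (log2 fold change -4.98, SE 0.0847, edgeR adjusted p = 1.48e-18). These genes remained detectable with TGF-β1 and BAY but at a small part of their level with BAY alone. HLF, a circadian transcription factor of the PAR bZIP family, averaged 2.59 ± 0.684 CPM with TGF-β1 and BAY and 93.1 ± 1.08 CPM with BAY alone and fell by 5.16. DEPTOR, an inhibitor of the kinase mTOR, averaged 1.67 ± 0.380 CPM with TGF-β1 and BAY and 66.3 ± 1.20 CPM with BAY alone and fell by 5.31 (SD, n = 5 and 3 for both). The potassium channel gene KCNJ13 (fell by 6.49), the phosphate transporter gene SLC17A1 (-6.12), the amino acid transporter gene SLC38A4 (-6.10), the gap junction gene GJB1 (-6.09), ARHGEF38, which encodes an exchange factor of small GTPases (-6.01), the carotene oxygenase gene BCO1 (-5.70) and the galectin gene LGALS2 (-5.69) completed the 12. Lack of overlap between the groups was a condition of this ranking.

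Promoters of the genes that rose were searched for short motifs, as a description. RefSeq promoters (GRCh38.p14) were matched by symbol for 12771 of the 21639 tested genes, and the 250 bases before the annotated start were read on both strands. The AP-1 motif TGACTCA stood in 7.09% of the 1170 promoters of genes that rose at least 2-fold, in 3.26% of the 1411 of genes that fell at least 2-fold, in 2.91% of those of all tested genes and in 4.16% of all 27305 promoters searched. For CAGACA, the core of the SMAD-binding CAGA box, the shares were 15.7%, 10.3%, 10.5% and 13.6% in the same order, and for the SMAD palindrome GTCTAGAC 0.256%, 0.142%, 0.172% and 0.176%. The largest changes did not follow these shares. Promoters were found for 8 of the 12 largest rises, and 0 held the AP-1 motif and 3 held CAGACA. Of the 11 found for the 12 largest falls, 1 held the AP-1 motif and 5 held CAGACA. The SMAD palindrome stood in 0 of either. The motifs were counted independently, so a base may belong to more than one. A match is a run of letters and not evidence that a factor binds. The 4 promoters that follow belong to genes that rose at least 2-fold and hold an AP-1 match. They are examples and not a ranking of all such genes. They are shown to place the motif relative to the start: its end nearer the start lies 40, 90, 92 and 46 bases before it. Each runs 5′ to 3′ towards the gene, with matches to TGACTCA or CAGACA on either strand in capitals.
ODAPH promoter, GRCh38.p14 chr4:75555816-75556065, plus strand: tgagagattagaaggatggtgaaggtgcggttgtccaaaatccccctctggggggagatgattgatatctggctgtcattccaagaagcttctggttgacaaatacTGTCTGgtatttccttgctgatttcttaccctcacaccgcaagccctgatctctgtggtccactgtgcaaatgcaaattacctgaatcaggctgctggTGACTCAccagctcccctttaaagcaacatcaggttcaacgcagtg
IL11 promoter, GRCh38.p14 chr19:55370464-55370713, minus strand: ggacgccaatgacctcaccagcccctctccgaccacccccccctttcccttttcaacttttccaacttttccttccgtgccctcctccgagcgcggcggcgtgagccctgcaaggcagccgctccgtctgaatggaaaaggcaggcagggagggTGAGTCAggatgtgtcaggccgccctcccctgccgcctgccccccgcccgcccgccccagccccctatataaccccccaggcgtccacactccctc
SLC2A12 promoter, GRCh38.p14 chr6:134052625-134052874, minus strand: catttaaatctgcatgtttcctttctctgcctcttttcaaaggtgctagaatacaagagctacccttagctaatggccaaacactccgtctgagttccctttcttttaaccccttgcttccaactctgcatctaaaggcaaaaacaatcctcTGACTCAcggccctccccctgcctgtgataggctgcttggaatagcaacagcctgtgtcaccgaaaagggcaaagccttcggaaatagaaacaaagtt
S100A2 promoter, GRCh38.p14 chr1:153565845-153566094, minus strand: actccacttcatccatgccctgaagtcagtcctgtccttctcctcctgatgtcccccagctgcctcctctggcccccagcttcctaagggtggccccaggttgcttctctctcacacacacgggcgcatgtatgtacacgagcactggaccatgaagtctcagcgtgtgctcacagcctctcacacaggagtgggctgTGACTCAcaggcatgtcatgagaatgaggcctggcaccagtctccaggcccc
ODAPH, a gene of tooth enamel formation, rose by 6.48, the cytokine gene IL11 by 4.37, the glucose transporter gene SLC2A12 by 4.32 and the calcium-binding protein gene S100A2 by 3.94 on the log2 scale. Of the 4 promoters, only that of ODAPH also holds a CAGACA match.

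Ligands and latency proteins of the TGF-β system rose for the most part: 8 of 11 tested members rose and 1 fell, with a median log2 fold change of 1.93, against 32.2% and 31.8% of all tested genes. The counts of every list below are to be read against these shares. TGFB2, a TGF-β ligand (ENSG00000092969, chromosome 1, 218346235 to 218444619), had 170.0, 172, 192, 173 and 175 CPM with TGF-β1 and BAY, against 24.4, 24.1 and 24.8 CPM with BAY alone (log2 fold change 2.85, SE 0.0703, edgeR adjusted p = 1.52e-16). The endogenous TGFB1 transcript had 648, 661, 555, 608 and 570.0 CPM with TGF-β1 and BAY, against 114, 109 and 109 CPM with BAY alone (log2 fold change 2.46, SE 0.0634, edgeR adjusted p = 2.86e-16). In both genes the groups were separated by a wide gap. LTBP2, a latent TGF-β binding protein, rose by 4.21, and its relatives LTBP1, LTBP3 and LTBP4 by 2.37, 1.43 and 0.82. FURIN, the convertase that cleaves pro-TGF-β1, rose by 2.62 and LRRC32, which holds latent TGF-β at the cell surface, by 1.93. NRROS, a related anchor, fell by 0.74. TGFB3 (log2 fold change -0.0015) and the latency activator gene THBS1 (-0.50) were not called. Their values depended on the subset: THBS1 had -0.057 with subset 1 and -0.90 with subset 2 (edgeR adjusted p = 0.283 and 8.91e-09), and TGFB3 0.26 with subset 1 and -0.21 with subset 2 (edgeR adjusted p = 0.00886 and 0.0328). These p-values leave out the spread between subsets, which were cut on the same data. THBS1 was also called lower without replicate 1 (-0.63) or replicate 2 (-0.66) of TGF-β1 and BAY, with the replicate number as a block (-0.43) and on total counts (-0.71).

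The receptors were mixed. Of the TGF-β receptors, 4 of 11 tested members rose and 5 fell, with a median log2 fold change of -0.18. These are 36.4% and 45.5%, and the share that rose is near the 32.2% of all tested genes. TGFBR1, the type I receptor, rose by 0.96, with 91.1, 86.2, 85.8, 79.5 and 83.3 CPM with TGF-β1 and BAY, against 43.0, 43.9 and 44.5 CPM with BAY alone. TGFBR2, the type II receptor, fell by 0.51, with 70.7, 69.8, 62.2, 57.8 and 59.6 CPM with TGF-β1 and BAY, against 88.7, 91.9 and 92.5 CPM with BAY alone. Neither pair of groups overlapped. ENG, the co-receptor endoglin, rose by 2.38, BMPR2 by 1.39 and ACVR1 by 1.15. The co-receptor gene TGFBR3 (-0.81) and the type I receptor genes ACVR1B (-1.13) and ACVRL1 (-0.76) fell, as did ACVR2A (-0.27). BMPR1A (0.056) and ACVR2B (-0.18) were not called, but ACVR2B was called lower with the replicate number as a block (-0.20), without BAY replicate 1 (-0.25), with subset 1 (-0.31) and on total counts (-0.38). BMPR1A was called higher with subset 1 (0.13) and lower on total counts (-0.15).

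The inhibitors PMEPA1, SMAD7 and SKIL rose and the signal transducer SMAD3 fell. For SMADs and inhibitors together, 9 of 16 tested members rose and 5 fell, with a median log2 fold change of 0.29. PMEPA1, which traps SMADs at the membrane, had 1139, 1135, 1134, 1135 and 1163 CPM with TGF-β1 and BAY, against 32.3, 29.7 and 31.5 CPM with BAY alone (log2 fold change 5.19, SE 0.0559, edgeR adjusted p = 9.43e-21). SMAD7, the inhibitory SMAD, had 97.2, 93.0, 60.6, 60.5 and 61.8 CPM with TGF-β1 and BAY, against 7.87, 7.72 and 7.60 CPM with BAY alone (log2 fold change 3.27, SE 0.322, edgeR adjusted p = 1.83e-07), with replicates 1 and 2 above replicates 3 to 5 and all 5 far above the libraries with BAY alone. Its log2 fold change was 3.62 with subset 1 and 2.99 with subset 2. SKIL, a co-repressor of SMADs, rose by 1.99, SMAD6 by 0.80, the ubiquitin ligase genes SMURF1 and SMURF2 by 0.73 and 0.30, and SKI by 0.44. LDLRAD4, another membrane trap for SMADs, had 344 counts over the libraries with TGF-β1 and BAY and 1 with BAY alone, a ratio of 238 (exact 95% interval 42.5 to 9436, counting error only). SMAD3 had 102, 102, 116, 129 and 124 CPM with TGF-β1 and BAY, against 269, 281 and 271 CPM with BAY alone and fell by 1.26. BAMBI, a pseudoreceptor, fell by 0.80, and the co-repressor genes TGIF1 and TGIF2 fell by 0.26 and 0.37. SMAD2 rose by 0.29 and SMAD1 fell by 0.19, while SMAD4 (0.0047) and SMAD5 (-0.11) were not called. On total counts both were called lower (-0.20 for SMAD4 and -0.31 for SMAD5), and SMAD5 was also called lower with the replicate block (-0.14) and with subset 1 (-0.20).

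Nearly all listed targets of the pathway rose. Of the TGF-β and SMAD targets, 24 of 26 tested members rose and 1 fell, with a median log2 fold change of 2.41, and 23 of the rises were at least 2-fold. The list was drawn up with earlier results of these data known. TGFBI, a secreted matrix protein (ENSG00000120708, chromosome 5, 136028895 to 136063818), had 9446, 9648, 10058, 10140.1 and 9435 CPM with TGF-β1 and BAY, against 212, 216 and 216 CPM with BAY alone (log2 fold change 5.50, SE 0.0881, edgeR adjusted p = 6.14e-19). Its groups lay far apart. CDKN2B, the cell cycle inhibitor p15, rose by 3.67, JUNB, an AP-1 subunit, by 3.65 and NOX4, an oxidase that makes hydrogen peroxide, by 2.34. ITGB6, an integrin subunit that activates latent TGF-β, was the member that fell (-0.59). CCN2, connective tissue growth factor, had 26.9, 27.0, 7.72, 8.70 and 8.81 CPM with TGF-β1 and BAY, against 8.39, 8.33 and 8.26 CPM with BAY alone and was not called (log2 fold change 0.93, edgeR adjusted p = 0.210). Its libraries with TGF-β1 and BAY split by subset, replicates 1 and 2 being high and replicates 3 to 5 at the level of BAY alone. With the libraries of subset 1 alone its log2 fold change was 1.69 (edgeR adjusted p = 2.25e-12), and with those of subset 2 alone 0.021 (adjusted p = 0.741). Because the subsets were cut on the same data, these p-values leave out the spread between them and are no separate test.

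**Figure D2:**
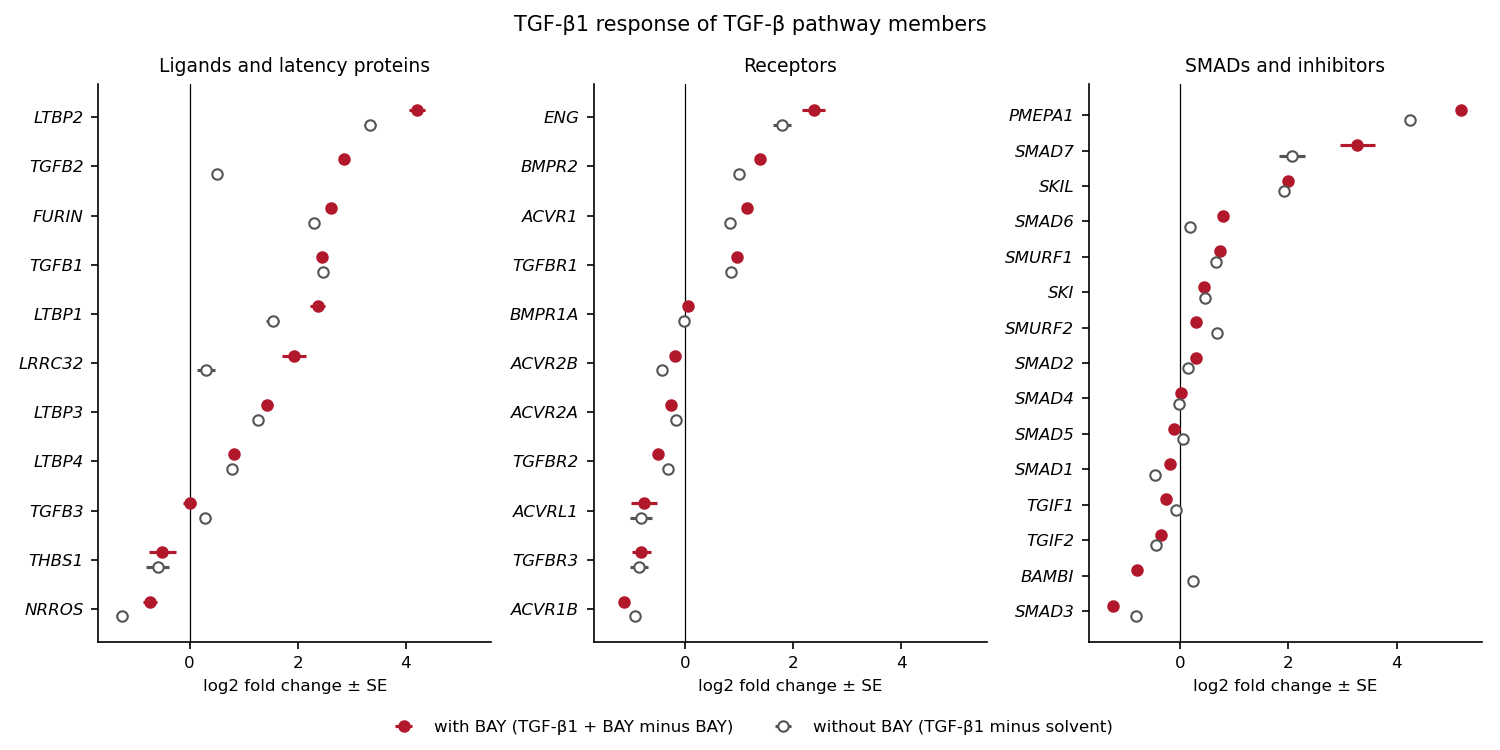
Log2 fold change of ligands and latency proteins, receptors, SMADs and inhibitors, with SE bars, with BAY present (TGF-β1 and BAY minus BAY, filled) above the same without BAY (TGF-β1 minus solvent, open) for each gene; most SE bars are shorter than the symbols, and LDLRAD4, with 1 count with BAY alone, is left out. LTBP2, PMEPA1, SMAD7 and TGFB2 stand to the right at 4.21, 5.19, 3.27 and 2.85 with BAY, and SMAD3 to the left at -1.26.

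Most genes of the activin and BMP branches rose. Of the activin, BMP and ID list, 10 of 14 tested members rose and 3 fell, with a median log2 fold change of 1.71. INHBA, the activin A subunit, had 257, 243, 259.8, 246 and 238 CPM with TGF-β1 and BAY, against 5.78, 5.81 and 6.04 CPM with BAY alone (log2 fold change 5.40, SE 0.0874, edgeR adjusted p = 6.96e-19). The ligand gene BMP2 rose by 2.86. BMP4 averaged 1.72 ± 0.146 CPM with TGF-β1 and BAY and 11.5 ± 0.952 CPM with BAY alone (SD, n = 5 and 3) and fell by 2.75. ID4, a BMP-responsive inhibitor of differentiation, fell by 1.78 and CHRD, a BMP antagonist, by 1.50, both at low levels. Members of a minority of 5 or fewer within a list that lie outside the naming rule, such as CHRD and ID4, were chosen after their values were seen.

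Most collagens and most enzymes that process them rose. Of the collagens, 14 of 21 tested members rose and 4 fell, with a median log2 fold change of 1.00. COL1A1, fibrillar collagen I, averaged 200.1 ± 8.84 CPM with TGF-β1 and BAY and 35.7 ± 0.552 CPM with BAY alone and rose by 2.48. COL5A1 rose by 3.96, COL16A1 by 2.60, and COL15A1 and COL6A3 by 7.15 and 5.25, both close to 0 with BAY alone. The collagens that fell were COL4A5 (-0.95), COL8A1 (-0.95), COL4A4 (-1.25) and COL17A1 (-1.27). Of the processing and crosslinking enzymes, 15 of 18 tested members rose and 3 fell, with a median log2 fold change of 0.84. LOX, lysyl oxidase, averaged 191 ± 15.5 CPM with TGF-β1 and BAY and 7.11 ± 0.242 CPM with BAY alone and rose by 4.75 (SD, n = 5 and 3 for both). The prolyl hydroxylase genes P4HA3, P4HA2 and P4HA1 rose by 3.29, 2.75 and 1.27. CRTAP (-0.41), PCOLCE (-0.24) and LOXL3 (-0.23) were lower and called.

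Among matrix glycoproteins, 12 of 23 tested members rose and 7 fell, with a median log2 fold change of 0.36. TNC, tenascin-C, had 478, 485, 595, 505 and 526 CPM with TGF-β1 and BAY, against 20.3, 23.3 and 26.5 CPM with BAY alone (log2 fold change 4.47, SE 0.117, edgeR adjusted p = 7.68e-16). FN1, fibronectin, rose by 2.25, and the laminin chain gene LAMB3 by 2.25. ELN, elastin, fell by 3.01, the proteoglycan genes DCN and LUM by 1.92 and 1.07, and the laminin chain gene LAMA3 by 1.90. Proteases and their inhibitors rose broadly: 17 of 21 tested members rose and 2 fell, with a median log2 fold change of 2.40. MMP13, collagenase-3, averaged 163 ± 29.5 CPM with TGF-β1 and BAY and 0.901 ± 0.0533 CPM with BAY alone (SD, n = 5 and 3), a rise of 7.50. MMP2 rose by 4.28, ADAM12 by 3.59 and SERPINE2, protease nexin-1, by 2.42. The members that fell were PLAU, urokinase (-1.35), and MMP24 (-1.86). Of the integrins, 6 of 12 tested members rose and 4 fell, with a median log2 fold change of 0.43. ITGA5, the fibronectin receptor chain, rose by 2.62, ITGA6 by 1.76 and ITGAV by 1.72. ITGB8, which activates latent TGF-β, had 31.4, 32.6, 39.7, 40.0 and 37.9 CPM with TGF-β1 and BAY, against 322, 338 and 347 CPM with BAY alone and fell by 3.21. ITGB4 and ITGA1 fell by 1.61 and 0.36. With only the subset 2 libraries of the TGF-β1 and BAY group, 6 integrins were called higher and 6 lower.

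Genes of the contractile cytoskeleton rose while junction genes fell. Of the contractile and mesenchymal genes, 15 of 17 tested members rose and 1 fell, with a median log2 fold change of 1.18. VIM, the intermediate filament vimentin, had 2104, 2171, 1773, 1837 and 1777 CPM with TGF-β1 and BAY, against 353, 331 and 323 CPM with BAY alone (log2 fold change 2.53, SE 0.101, edgeR adjusted p = 1.99e-13). TPM1, a tropomyosin, rose by 2.58, CNN1, calponin, by 4.58, PDGFRB, a growth factor receptor of mesenchymal cells, by 4.00, and ACTA2, smooth muscle actin, by 1.42, at 3.53 ± 0.640 CPM with TGF-β1 and BAY and 1.32 ± 0.216 CPM with BAY alone (SD, n = 5 and 3). LMOD1, close to 0 in both groups, fell by 1.81. Of the transcription factors of epithelial-mesenchymal transition, 6 of 11 tested members rose and 3 fell, with a median log2 fold change of 1.13. SNAI1 had 142, 146, 109, 115 and 112 CPM with TGF-β1 and BAY, against 6.87, 6.96 and 6.38 CPM with BAY alone (log2 fold change 4.21, SE 0.206, edgeR adjusted p = 1.45e-11). SNAI2 rose by 2.88, ZEB1 by 1.77, ZEB2 by 1.13, TCF4 by 1.74 and FOXC2 by 4.77. The splicing regulators of epithelial transcripts ESRP1 and ESRP2 fell by 1.34 and 1.56, and SNAI3 by 2.16.

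Of the junction and keratin genes, 6 of 23 tested members rose and 16 fell, with a median log2 fold change of -1.31. CDH1, E-cadherin, had 7.03, 6.63, 6.15, 6.67 and 5.73 CPM with TGF-β1 and BAY, against 34.1, 37.1 and 34.2 CPM with BAY alone (log2 fold change -2.45, SE 0.0625, edgeR adjusted p = 2.48e-16). OCLN, occludin, had 2.08, 2.30, 2.44, 1.95 and 3.26 CPM with TGF-β1 and BAY, against 21.8, 20.2 and 20.9 CPM with BAY alone (log2 fold change -3.12, SE 0.125, edgeR adjusted p = 1.34e-13). CLDN2, the claudin of the leaky proximal tubule, fell by 3.10, CLDN3 by 3.58, and CDH16, a kidney-specific cadherin, by 3.02. The tight junction scaffold gene TJP3 fell by 2.88, while DSP, desmoplakin of the desmosomes, rose by 2.56 and the keratin genes KRT8 and KRT18 by 1.06 and 0.66. The summed level of the 23 members was 3218 to 4230.1 CPM with TGF-β1 and BAY and 2777 to 2835 CPM with BAY alone. The sum was thus higher with TGF-β1 and BAY although most members fell, and it includes the keratins and DSP.

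Genes of the differentiated proximal tubule fell. Of the transporters and receptors, 3 of 17 tested members rose and 13 fell, with a median log2 fold change of -1.65. SLC2A2, the glucose transporter GLUT2 (ENSG00000163581, chromosome 3, 170996348 to 171026750), had 3.46, 3.38, 3.06, 2.89 and 2.99 CPM with TGF-β1 and BAY, against 64.9, 66.3 and 68.7 CPM with BAY alone (log2 fold change -4.40, SE 0.148, edgeR adjusted p = 3.54e-14). The phosphate cotransporter gene SLC34A1 fell by 4.78, the cystine transporter subunit gene SLC3A1 by 4.93 and the bicarbonate cotransporter gene SLC4A4 by 2.52. GGT1, a brush border enzyme, averaged 65.3 ± 8.83 CPM with TGF-β1 and BAY and 302 ± 5.72 CPM with BAY alone (SD, n = 5 and 3) and fell by 2.21. The members that rose, AQP1 (4.30), ALPL (2.28) and CUBN (1.46), were all low, AQP1 at 1.07 ± 0.257 CPM with TGF-β1 and BAY and 0.0527 ± 0.0244 CPM with BAY alone and CUBN at 1.63 ± 0.360 CPM with TGF-β1 and BAY and 0.594 ± 0.0154 CPM with BAY alone. As a check of the label, SLC22A6 was at 0 in the 8 libraries, and LRP2 and HNF4A stayed below 1 CPM, while PAX8, GGT1, MME and DPP4 were present. Several defining transcripts of the proximal tubule were thus absent or nearly so, also with BAY alone. Summed over the list, the level was 283 to 356 CPM with TGF-β1 and BAY and 1152 to 1184 CPM with BAY alone.

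Among nephron transcription factors, 2 of 11 tested members rose and 9 fell, with a median log2 fold change of -2.31. PAX2, a regulator of kidney development, had 1.87, 1.66, 1.67, 1.58 and 1.45 CPM with TGF-β1 and BAY, against 9.24, 8.60 and 8.84 CPM with BAY alone (log2 fold change -2.43, SE 0.134, edgeR adjusted p = 1.27e-11). IRX3 fell by 2.95, PAX8 by 0.58, the nuclear receptor gene ESRRG by 3.39 and TFCP2L1 by 5.42, while LHX1 (1.69) and MAF (0.67) rose. Of the markers of tubular injury and repair, 4 of 13 tested members rose and 8 fell, with a median log2 fold change of -1.41. HAVCR1, which encodes the injury marker KIM-1, had 104, 107, 107, 102 and 102 CPM with TGF-β1 and BAY, against 454, 483 and 489.6 CPM with BAY alone (log2 fold change -2.19, SE 0.0539, edgeR adjusted p = 1.51e-16). CD24 fell by 2.40, PROM1 by 3.84, VCAM1 by 1.70, SPP1, osteopontin, by 1.50 and LCN2, the injury marker NGAL, by 1.41. SOX9 (1.08), MYC (0.89), CCL2 (0.65) and TIMP1 (0.21) were higher and called.

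**Figure D3:**
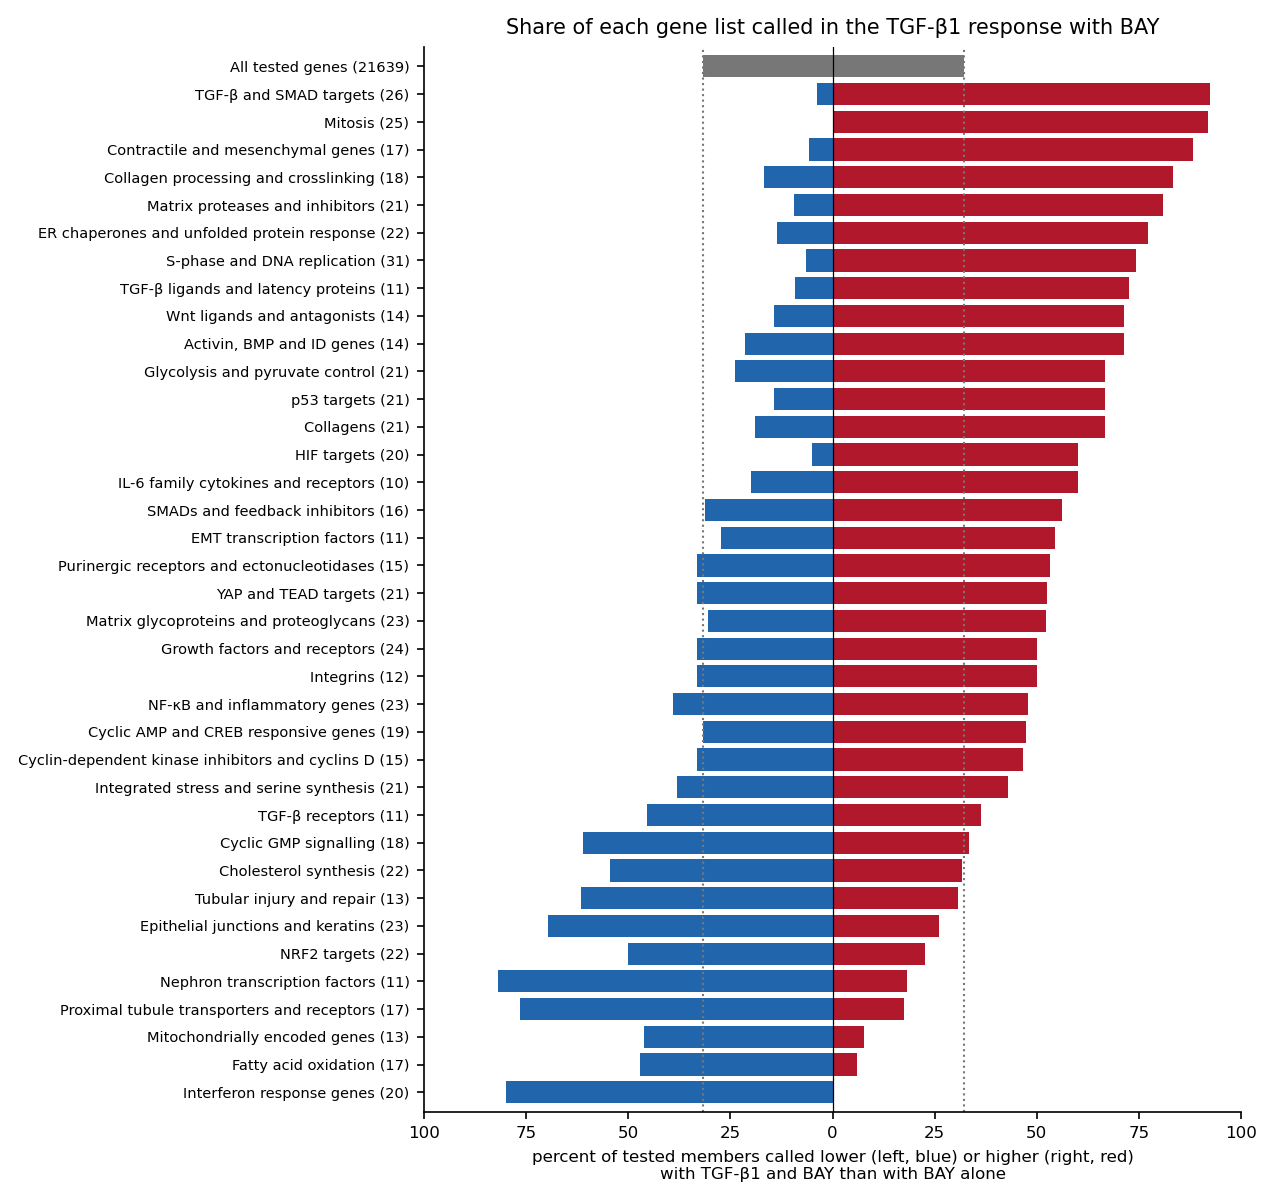
Percent of the tested members of each gene list that were called lower (left) or higher (right) with TGF-β1 and BAY than with BAY alone, with all 21639 tested genes on top (31.8% lower, 32.2% higher); the number of tested members stands beside each list. Targets of TGF-β and mitosis genes lie almost wholly to the right, and interferon response genes and nephron transcription factors to the left.

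Of the Wnt ligands and antagonists, 10 of 14 tested members rose and 2 fell, with a median log2 fold change of 1.48. The ligand genes WNT9A, WNT5B and WNT7B rose by 3.84, 4.51 and 1.69. DKK3, a divergent member of the dickkopf family (ENSG00000050165, chromosome 11, 11963106 to 12009769), had 92.4, 93.4, 102, 94.2 and 102 CPM with TGF-β1 and BAY, against 23.5, 24.0 and 24.0 CPM with BAY alone (log2 fold change 2.02, SE 0.0379, edgeR adjusted p = 5.32e-18). DKK2 rose by 4.86 at a low level. DKK1, a secreted inhibitor of Wnt co-receptors, moved against these with 2.49, 2.26, 1.76, 2.30 and 2.49 CPM with TGF-β1 and BAY, against 64.9, 60.4 and 60.1 CPM with BAY alone (log2 fold change -4.77, SE 0.0945, edgeR adjusted p = 9.38e-18), and SFRP4 fell by 3.90. Of the growth factors and receptors, 12 of 24 tested members rose and 8 fell, with a median log2 fold change of 0.27. EGFR, the epidermal growth factor receptor, rose by 1.97, its ligand gene HBEGF by 2.23, PDGFB by 2.37 and VEGFA by 1.87. ERBB3 and FGFR2, other receptor tyrosine kinases, fell by 2.75 and 2.27.

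Cytokine genes were mixed. Of the IL-6 family and its receptors, 6 of 10 tested members rose and 2 fell, with a median log2 fold change of 0.69. IL11 (ENSG00000095752, chromosome 19, 55364389 to 55370463) had 1667, 1618, 1521, 1608 and 1474 CPM with TGF-β1 and BAY, against 82.0, 74.0 and 72.1 CPM with BAY alone (log2 fold change 4.37, SE 0.0831, edgeR adjusted p = 5.77e-18). LIF rose by 2.53 and OSMR, the receptor of oncostatin M, by 1.61, while IL6R fell by 2.64 and IL11RA by 0.37 with overlapping libraries. Of the NF-κB and inflammatory genes, 11 of 23 tested members rose and 9 fell, with a median log2 fold change of 0.13, or 47.8% and 39.1%. The chemokine gene CXCL8 rose by 2.56 and CXCL3 by 2.23, while BIRC3, an inhibitor of apoptosis, fell by 1.92 and SOD2 by 1.28. The direction of this list was not stable: on total counts 8 members were called higher and 11 lower. Interferon response genes moved one way: 0 of 20 tested members rose and 16 fell, with a median log2 fold change of -0.54. IFIH1, a sensor of double-stranded RNA, had 3.22, 3.61, 1.84, 2.89 and 2.59 CPM with TGF-β1 and BAY, against 10.2, 10.4 and 10.7 CPM with BAY alone (log2 fold change -1.88, SE 0.168, edgeR adjusted p = 1.60e-08). RSAD2 fell by 2.10 and OASL by 1.54.

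Most mitosis genes rose, by less than 2-fold with 1 exception, as did most S-phase genes under TMM scaling but not on total counts. Of the mitosis genes, 23 of 25 tested members rose and 0 fell, with a median log2 fold change of 0.61, and BUB1B was the exception, with 90.7, 92.8, 111, 103 and 105 CPM with TGF-β1 and BAY, against 42.7, 41.4 and 43.0 CPM with BAY alone (log2 fold change 1.25). PLK1 rose by 0.89, UBE2C by 0.85 and CCNA2 by 0.82. Of the S-phase genes, 23 of 31 tested members rose and 2 fell, with a median log2 fold change of 0.31, while on total counts 15 rose and 10 fell, with a median of 0.11. GINS4, CDC6 and MCM10 rose by 0.90, 0.75 and 0.74. RRM2, the small subunit of ribonucleotide reductase (ENSG00000171848, chromosome 2, 10120698 to 10131419), went against its list with 229, 229.9, 242, 245 and 248 CPM with TGF-β1 and BAY, against 731, 703 and 719 CPM with BAY alone (log2 fold change -1.59, SE 0.0535, edgeR adjusted p = 1.10e-14), and CDT1, a licensing factor, fell by 0.57. Of the cyclin-dependent kinase inhibitors and D cyclins, 7 of 15 tested members rose and 5 fell, with a median log2 fold change of -0.0070, while on total counts 7 rose and 8 fell. CDKN1A, p21, rose by 1.84 and CCND1 by 2.68. CDKN1C, p57, had 20.3, 17.2, 10.6, 15.1 and 14.0 CPM with TGF-β1 and BAY, against 257, 235 and 229 CPM with BAY alone and fell by 3.96. CCND2 (-1.97), CDKN2C (-0.81), CDKN1B (-0.64) and RBL2 (-0.18) were lower and called. Of the p53 targets, 14 of 21 tested members rose and 3 fell, with a median log2 fold change of 0.43. The death receptor gene FAS rose by 1.77, AEN, an exonuclease, by 1.89 and PHLDA3 by 1.73. TP53INP1 (-0.61), BTG2 (-0.60) and XPC (-0.18) were lower and called.

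Both subunits of the main enzyme that the activator targets fell. Of the cyclic GMP genes, 6 of 18 tested members rose and 11 fell, with a median log2 fold change of -1.0. GUCY1A1 and GUCY1B1 encode the subunits of the main soluble guanylate cyclase dimer. GUCY1A1 had 8.15, 8.69, 7.77, 8.60 and 7.55 CPM with TGF-β1 and BAY, against 35.9, 36.8 and 37.1 CPM with BAY alone (log2 fold change -2.17, SE 0.0546, edgeR adjusted p = 2.09e-16). GUCY1B1 had 56.7, 56.9, 55.8, 57.1 and 53.3 CPM with TGF-β1 and BAY, against 94.9, 93.2 and 94.8 CPM with BAY alone (log2 fold change -0.75, SE 0.0298, edgeR adjusted p = 1.11e-13). Neither pair of groups overlapped. GUCY1A2, the alternative alpha subunit, rose by 1.50 at 23.4 ± 2.45 CPM with TGF-β1 and BAY and 8.25 ± 0.738 CPM with BAY alone (SD, n = 5 and 3). NPR1, the natriuretic peptide receptor that is a membrane guanylate cyclase, had 19.9, 20.8, 17.6, 18.7 and 21.1 CPM with TGF-β1 and BAY, against 211, 207 and 205 CPM with BAY alone (log2 fold change -3.41, SE 0.0977, edgeR adjusted p = 3.28e-15), and NPR2 fell by 2.72 at below 1 CPM. The clearance receptor gene NPR3, also below 1 CPM, rose by 2.08.

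The kinases of cyclic GMP, PRKG1 and PRKG2, fell by 1.70 and 1.31, and their substrate VASP, an actin regulator, rose by 1.45. PDE5A, the phosphodiesterase that degrades cyclic GMP, had 4.19, 3.70, 4.35, 4.73 and 5.40 CPM with TGF-β1 and BAY, against 2.08, 1.70 and 2.01 CPM with BAY alone and rose by 1.21. PDE2A, which cyclic GMP stimulates, rose by 2.05 and PDE6D by 0.59. The phosphodiesterase genes PDE1A (-2.65), PDE3A (-1.25), PDE3B (-1.45), PDE9A (-1.40) and PDE10A (-0.61) fell. IRAG1, a kinase substrate that was close to 0 in both groups, was not called (-0.39), although with subset 1 it was called lower (-1.73) and with subset 2 it stood at 0.12. Of the genes responsive to cyclic AMP and CREB, 9 of 19 tested members rose and 6 fell, with a median log2 fold change of 0.51. FOSB, an AP-1 subunit, rose by 5.15 and FOSL1 by 2.61, while CITED2 fell by 2.04 and PDE7B by 2.48.

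Of the purinergic receptors and ectonucleotidases, 8 of 15 tested members rose and 5 fell, with a median log2 fold change of 0.56. NT5E, the ecto-enzyme CD73 that makes adenosine, had 202, 197, 159, 151 and 154 CPM with TGF-β1 and BAY, against 3.77, 3.69 and 4.02 CPM with BAY alone (log2 fold change 5.49, SE 0.297, edgeR adjusted p = 8.80e-11). The adenosine receptor gene ADORA2B rose by 2.18. P2RY6, the receptor of UDP (ENSG00000171631, chromosome 11, 73264505 to 73298617), had 19.7, 18.6, 16.7, 18.6 and 19.2 CPM with TGF-β1 and BAY, against 73.6, 72.4 and 70.7 CPM with BAY alone (log2 fold change -1.96, SE 0.0754, edgeR adjusted p = 7.24e-14). ENTPD5 (-0.79), ENTPD2 (-0.69), P2RX4 (-0.43) and ADORA1 (-0.17) were lower and called, ADORA1 with overlapping libraries. Of the YAP and TEAD targets, 11 of 21 tested members rose and 7 fell, with a median log2 fold change of 0.23. GADD45B rose by 3.32 and PTPN14 by 1.36, and F3, tissue factor, fell by 3.10. On total counts 9 members of this list were called each way.

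Most glycolysis genes and most chaperones rose. Of the glycolysis genes, 14 of 21 tested members rose and 5 fell, with a median log2 fold change of 0.72, with SLC2A1, the glucose transporter GLUT1, at 1.98, PFKP at 1.56 and PKM at 1.43. PDK4, which inhibits pyruvate dehydrogenase, had 56.7, 55.0, 29.4, 30.9 and 28.1 CPM with TGF-β1 and BAY, against 203, 198 and 205 CPM with BAY alone and fell by 2.34 (-1.86 with subset 1 and -2.77 with subset 2). Fatty acid oxidation had 1 member higher and 8 of 17 lower, among them the coactivator gene PPARGC1A (-1.98) and ACSL1 (-1.49). Of the mitochondrially encoded genes, 1 of 13 tested members rose and 6 fell, with a median log2 fold change of -0.11, from MT-CO1 at -0.36 to MT-ND6 at 0.25. These counts are not firm: from 3 to 11 members fell and from 0 to 3 rose over the alternatives, with 3 falls without TGF-β1 and BAY replicate 5 and 11 on total counts. Of the fatty acid oxidation genes, 0 rose and 13 fell on total counts. Of the cholesterol synthesis genes, 7 of 22 tested members rose and 12 fell, with a median log2 fold change of -0.14. The share that rose, 31.8%, is that of all tested genes (32.2%), and 54.5% fell against 31.8% of all. STARD4, a cholesterol transfer protein, rose by 1.53. Chaperones of the endoplasmic reticulum rose: 17 of 22 tested members rose and 3 fell, with a median log2 fold change of 0.79, with SDF2L1 at 1.60, HSPA5, the chaperone BiP, at 1.54 and the stress sensor ERN1 at -1.91. DNAJB9 (-0.80) and ATF6 (-0.095) were also lower and called.

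Of the integrated stress and serine synthesis genes, 9 of 21 tested members rose and 8 fell, with a median log2 fold change of 0.052 and no firm direction, since on total counts 8 rose and 9 fell. SLC7A11, the cystine-glutamate exchanger, had 55.5, 54.7, 60.9, 54.2 and 47.6 CPM with TGF-β1 and BAY, against 3.60, 4.46 and 4.52 CPM with BAY alone (log2 fold change 3.70, SE 0.0993, edgeR adjusted p = 4.84e-16). SLC7A5 rose by 1.54, and PSAT1, of serine synthesis, fell by 1.23. Of the NRF2 targets, 5 of 22 tested members rose and 11 fell, with a median log2 fold change of -0.35. The factor itself, NFE2L2, fell by 1.00, and ABCC2 by 1.68. Besides SLC7A11, the NRF2 targets that rose were TALDO1 (0.71), ME1 (0.69), TXN (0.62) and KEAP1 (0.20). Of the targets of hypoxia-inducible factors, 12 of 20 tested members rose and 1 fell, with a median log2 fold change of 0.68, in normoxic cells. STC1, a secreted hormone, rose by 3.84 and CA9, below 1 CPM, by 2.96, and NDRG1 fell by 0.92. The number of falls in this list was 3 without replicate 1 or 2 of TGF-β1 and BAY and 4 on total counts.

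The response with BAY present was then set against the response without it (TGF-β1 minus solvent), which shares no library with it. Without BAY the same fit called 13422 genes (62%), 6380 higher (29.5%) and 7042 lower (32.5%), and 3674 of them (17%) by at least 2-fold, 1397 higher (6.46%) and 2277 lower (10.5%). Of the genes called with BAY, 79.9% were called in the same direction without it, and of those called without BAY, 82.5% were called in the same direction with it. In 281 genes both responses were called with opposite directions. The difference between the responses, their interaction, was called for 4487 genes (20.7%), 2956 with a more positive response with BAY (13.7%) and 1531 with a less positive one (7.08%). It reached 2-fold for 680 genes (3.14%), 436 more positive (2.01%) and 244 less (1.13%). Of 11072 genes with both responses called in one direction, 2968 had a called interaction. Among these 2968 the response was larger with BAY in 2482 and smaller in 486. That split was counted in the main fit only, and not for the genes without a called interaction. On total counts the interaction split into 2147 and 2275 genes (48.6% of the calls more positive against 65.9%). With each subset alone, the calls were 7100 (3538 more positive and 3562 less) and 5142 (2892 and 2250), and subset 1 holds 3 solvent libraries but 2 of each TGF-β1 group. The share of more positive responses is therefore not firm.

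**Figure D4:**
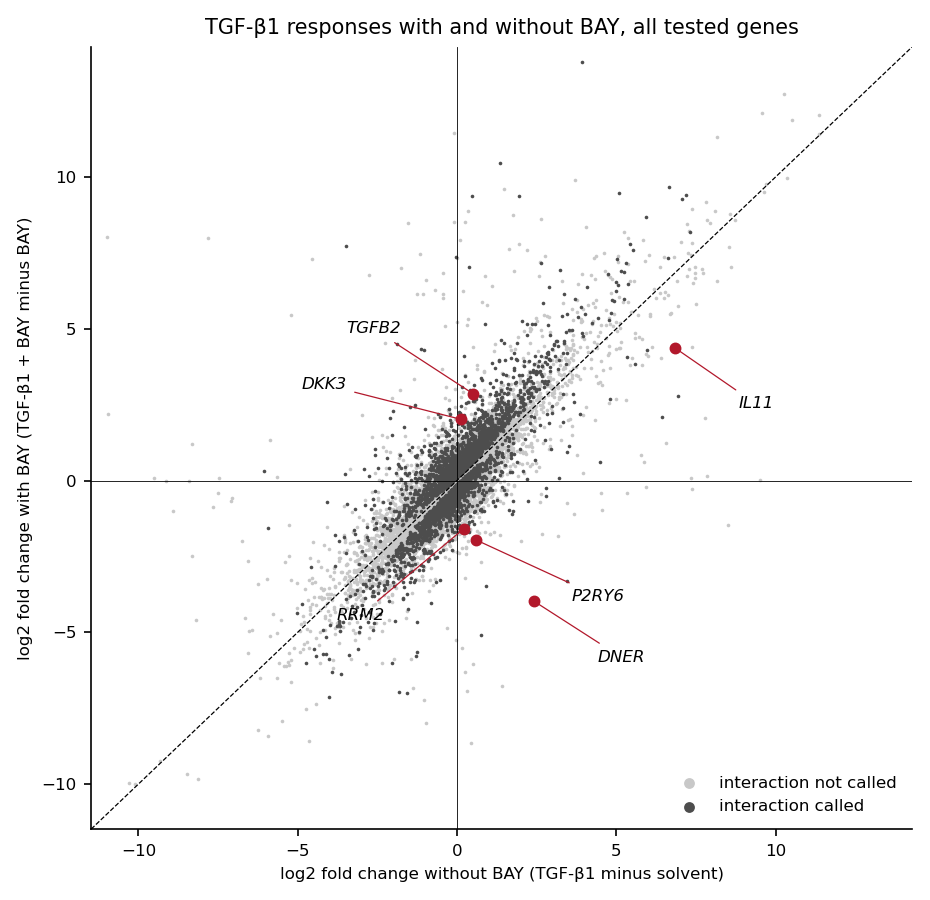
Log2 fold change of each of the 21639 tested genes with BAY (TGF-β1 and BAY minus BAY, vertical axis) against that without BAY (TGF-β1 minus solvent, horizontal axis); genes with a called interaction are dark. Most genes lie near the diagonal, and TGFB2, DKK3, P2RY6 and RRM2 lie off it at 2.85, 2.02, -1.96 and -1.59 with BAY against 0.51, 0.11, 0.61 and 0.21 without it.

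For the 4 genes TGFB2, DKK3, P2RY6 and RRM2, singled out from earlier results of these data, the responses differed, and the level with BAY alone stood apart from the other 3 groups. Without BAY, TGFB2 was 117 ± 11.0 CPM with TGF-β1 and 82.3 ± 3.37 CPM with solvent (SD, n = 5 each), a log2 fold change of 0.51, and the interaction was 2.34 (SE 0.0846, edgeR adjusted p = 2.76e-12). DKK3 was 115 ± 1.82 CPM with TGF-β1 and 107 ± 2.64 CPM with solvent, a change of 0.11 (interaction 1.91, SE 0.0472, edgeR adjusted p = 9.63e-15). P2RY6 was 17.6 ± 1.91 CPM with TGF-β1 and 11.6 ± 0.927 CPM with solvent (interaction -2.57, SE 0.102, edgeR adjusted p = 8.37e-12), so it rose by 0.61 without BAY and fell by 1.96 with it. RRM2 was 209.7 ± 4.06 CPM with TGF-β1 and 181 ± 16.6 CPM with solvent (interaction -1.80, SE 0.0718, edgeR adjusted p = 8.37e-12), with a rise of 0.21 without BAY and a fall of 1.59 with it. The rise without BAY was not called on total counts (0.084). In each of the 4 genes the level with TGF-β1 and BAY lay nearer to that with TGF-β1 alone than to that with BAY alone.

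Among genes with a more positive response with BAY, ADCY8, a calcium-stimulated adenylyl cyclase, had 34.5, 34.1, 31.6, 30.8 and 28.1 CPM with TGF-β1 and BAY, against 0.912, 0.869 and 0.885 CPM with BAY alone. It was 13.8 ± 0.549 CPM with TGF-β1 and 3.04 ± 0.525 CPM with solvent (SD, n = 5 each; interaction 2.98, SE 0.151, edgeR adjusted p = 2.04e-10). KIF26B, an atypical kinesin, rose by 5.25 with BAY and by 2.03 without it (interaction 3.22), and ANOS1, the matrix protein anosmin, by 3.97 and 1.33 (interaction 2.65). CEMIP, a hyaluronan-binding protein, rose by 4.62 with BAY and 1.37 without it, and FOSB by 5.15 and 2.44, with interactions of 3.25 and 2.71. FAM43A rose by 3.16 with BAY, and its change without BAY was 0.52 (edgeR adjusted p = 0.110, interaction 2.64). That change was called with the replicate block (0.50) and with subset 1 (0.74) or subset 2 alone (0.70). CHL1, a neural adhesion molecule, had 8.60, 9.51, 4.87, 5.13 and 3.56 CPM with TGF-β1 and BAY, against 1.26, 1.34 and 1.31 CPM with BAY alone, and without BAY it stood at 0.0305 ± 0.0230 CPM with TGF-β1 and 0.129 ± 0.0639 CPM with solvent (SD, n = 5 each; interaction 4.29). CHL1 thus rose by 2.28 with BAY and fell by 2.01 without it, the fall lying between very low levels. With subset 1 alone that fall was not called (-1.11). IL7R, which rose strongly in both settings, had an interaction of 2.21, MMP10 one of 2.21 and SLC7A11 one of 2.51.

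Among genes with a less positive response with BAY, IL11 was 312 ± 18.8 CPM with TGF-β1 and 2.73 ± 0.328 CPM with solvent without BAY (SD, n = 5 each), a log2 fold change of 6.83 against 4.37 with BAY (interaction -2.46, SE 0.0956, edgeR adjusted p = 6.86e-12). Its level with TGF-β1 and BAY was nevertheless the highest of the 4 groups, above TGF-β1 alone. DNER, a Notch ligand of neurons, fell by 3.97 with BAY and rose by 2.40 without it (interaction -6.37, SE 0.396, edgeR adjusted p = 3.28e-09). It averaged 0.493 ± 0.0545 CPM with TGF-β1 and BAY and 7.74 ± 0.394 CPM with BAY alone (SD, n = 5 and 3), and 0.781 ± 0.176 CPM with TGF-β1 and 0.148 ± 0.0877 CPM with solvent (SD, n = 5 each). DACT1, a modulator of Wnt signalling, rose by 1.13 with BAY and 3.50 without it (interaction -2.38). SPTLC3, a subunit of serine palmitoyltransferase, fell by 3.74 with BAY, with a change of -1.56 without it (interaction -2.18), and MIR4500HG by 4.39, with -2.41 (interaction -1.98). AKAP12, a scaffold of protein kinase A, had 159.9, 162, 113, 126 and 101 CPM with TGF-β1 and BAY, against 124, 135 and 128 CPM with BAY alone, a change of 0.039 that was not called (0.31 with subset 1 and -0.18 with subset 2), and rose by 2.19 without BAY (interaction -2.15, SE 0.162, edgeR adjusted p = 6.51e-08). CACNA1H, a T-type calcium channel, had 32.6, 34.8, 32.7, 35.5 and 29.2 CPM with TGF-β1 and BAY, against 39.9, 40.6 and 37.5 CPM with BAY alone, and without BAY 16.5 ± 0.399 CPM with TGF-β1 and 2.37 ± 0.500 CPM with solvent (interaction -3.06, SE 0.145, edgeR adjusted p = 1.20e-10). Its small fall with BAY (-0.25, edgeR adjusted p = 0.0412) was lost under several alternatives.

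Further genes with opposite directions, chosen after their values were seen for their small interaction p, were STC2, STARD13, CADM1 and GABARAPL1. STC2, the hormone stanniocalcin-2, had 43.2, 42.2, 45.8, 43.2 and 43.7 CPM with TGF-β1 and BAY, against 16.3, 15.7 and 16.4 CPM with BAY alone, and without BAY 42.5 ± 2.03 CPM with TGF-β1 and 64.8 ± 2.03 CPM with solvent (interaction 2.04, SE 0.0541, edgeR adjusted p = 2.19e-14). STARD13, a GTPase-activating protein, fell by 1.42 with BAY and rose by 0.52 without it. CADM1, an adhesion molecule, rose by 0.83 with BAY, with -0.17 without it. GABARAPL1, of the autophagy machinery, fell by 0.99 with BAY and rose by 0.31 without it. The libraries of the 2 groups compared did not overlap for any of them.

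**Figure D5:**
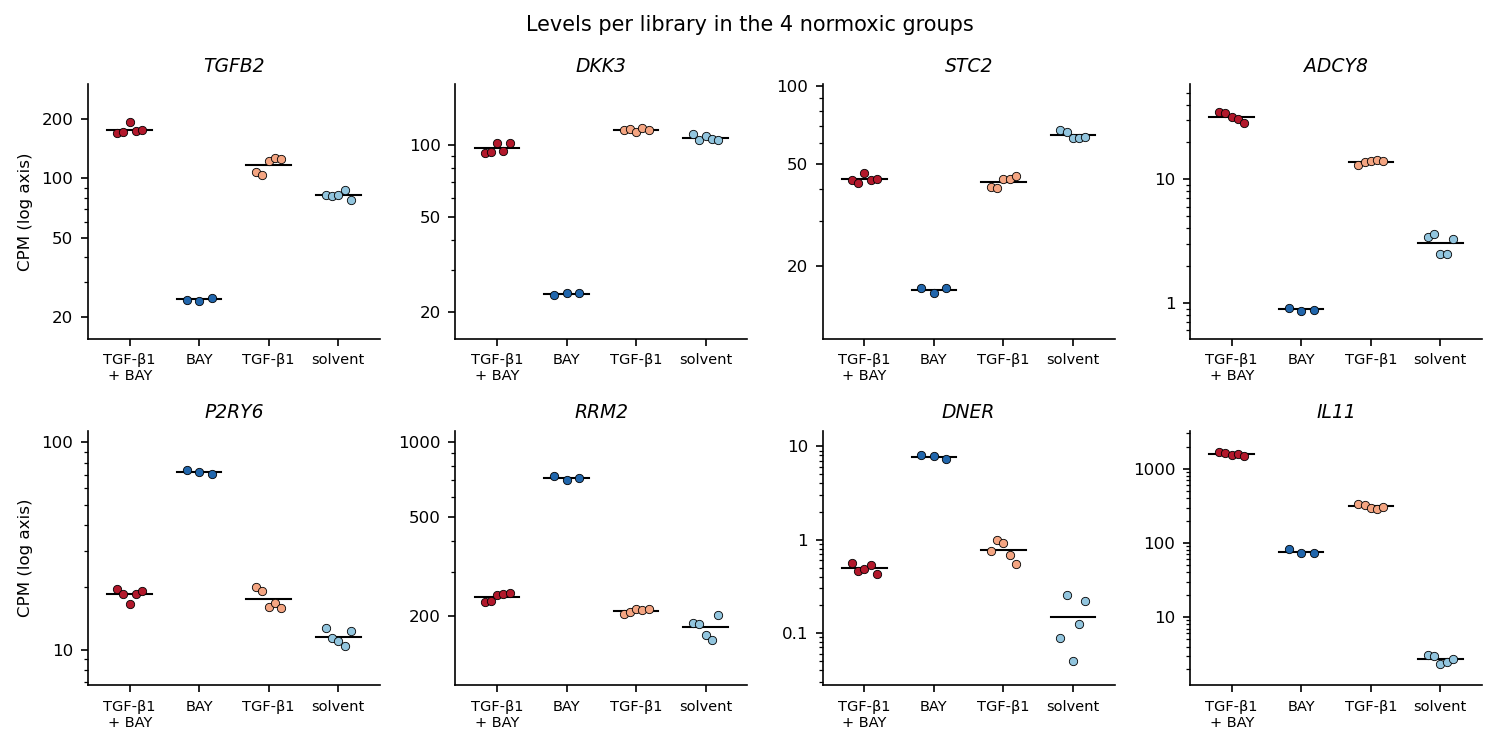
Level of 8 genes in each library of the 4 normoxic groups, as CPM on a log axis, from left to right TGF-β1 and BAY, BAY alone, TGF-β1 alone and solvent; points are libraries and bars are group means. In TGFB2, DKK3 and STC2 the BAY-alone libraries are the lowest of the 4 groups, in P2RY6, RRM2 and DNER the highest, and IL11 is higher with TGF-β1 and BAY than with BAY alone and with TGF-β1 than with solvent.

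Marker lists of other cells were summed as well. The fibroblast list summed to 264 to 285 CPM with TGF-β1 and BAY and 164 to 171 CPM with BAY alone, with COL1A2, COL3A1, PDGFRA and POSTN at or close to 0. Members moved in both directions: COL1A1, PDGFRB and FAP (2.35) rose, and LUM, DCN and THY1 fell. THY1, with overlapping libraries, had 3 counts over the libraries with TGF-β1 and BAY and 19 with BAY alone, a ratio of 9.15 higher in BAY alone (exact 95% interval 2.69 to 48.3). The part of fibroblast genes in the rise of the matrix genes was not tested. Endothelial markers summed to 33.5 to 39.1 CPM with TGF-β1 and BAY and 30.6 to 34.3 CPM with BAY alone, of which CDH5, KDR and CLDN5 were at 0 in every library of the 2 groups. Of the 2 endothelial markers tested, 1 rose, by at least 2-fold, and 0 fell. Immune markers summed to 250.3 to 279.7 CPM with TGF-β1 and BAY and 259 to 268 CPM with BAY alone, with CD3E at 0. CSF1R, the receptor of colony stimulating factor 1, had 58.4, 59.0, 61.7, 60.2 and 58.6 CPM with TGF-β1 and BAY, against 8.54, 9.26 and 8.97 CPM with BAY alone and rose by 2.74, while CD74 fell by 0.42 and CD68 by 0.23. Podocyte markers summed to 38.1 to 72.5 CPM with TGF-β1 and BAY and 104 to 108 CPM with BAY alone, with WT1 at 0. Of the 4 podocyte markers tested, 1 rose and 2 fell. SYNPO, synaptopodin, fell by 1.03 (-0.57 with subset 1 and -1.45 with subset 2). Distal nephron markers summed to 8.13 to 9.19 CPM with TGF-β1 and BAY and 38.0 to 39.7 CPM with BAY alone, with UMOD and AQP2 at 0 and the epithelial sodium channel subunits SCNN1A (-3.44) lower and SCNN1G (2.21) higher.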

How the data were processed

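Estimated gene counts of 24 libraries were used, 18 of them normoxic. Per the submitters' processing notes, the authors used Salmon, GRCh38 and DESeq2; versions, annotation and use of strand were not given in those notes. The deposited expected counts (48.6% of values above 0 were not whole, at a tolerance of 1e-06) were rounded. Of 65180 gene IDs, 58919 had a symbol in the gene name table used here, and the 6261 without one held 4.36% of the counts. Positions are those of GENCODE 29. The main test was edgeR 4.0.16 (R 4.3.3): genes kept by filterByExpr over the groups, TMM scaling, robust quasi-likelihood fit of the 18 normoxic libraries with 1 mean per group, and Benjamini-Hochberg adjustment over 21639 genes. SE was approximated as the absolute log2 fold change over the root of F. The interaction is the response with BAY minus that without it. Tested on simulated counts for the real libraries, the fit called 91 of 100 genes changed 2-fold, 73 of 100 changed 1.41-fold and 7 of 20916 not changed in the response with BAY, and 86, 62 and 3 in the interaction. The simulation had no subsets and gave each unchanged gene 1 mean over all groups. Its 200 changed genes were well counted and split evenly between rises and falls. In the real libraries most genes were called and subsets were present, so these rates need not hold for them.

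The alternatives were DESeq2 1.42.0, RLE scaling, no filter on low counts, only the libraries compared, all 24 libraries, the replicate number as a block, leaving out each library, the libraries of each subset, and, chosen after seeing the data, total counts without a scaling factor. The named genes are the 12 largest rises and 12 largest falls (called, at least 5 CPM in 1 of the groups, no overlap), TGFB2, DKK3, P2RY6 and RRM2, up to 4 called members of each list with the largest change, all members of the ligand, receptor, SMAD and cyclic GMP lists, and the 8 largest interactions in each direction. The 42 lists, with 715 of 723 symbols found, and the members of the comparison were chosen with earlier results of these data known. Members of a list outside this rule that the text names, and STC2, STARD13, CADM1, GABARAPL1, ODAPH, SLC2A12 and S100A2, were chosen after their values were seen. Some genes that these rules name are not reported here. The p-values measure the spread between these libraries, which may be technical, and counting intervals cover counting error only. Promoters are those of RefSeq, GRCh38.p14. The 6 hypoxic libraries entered 1 alternative only.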

Additional observations from a re-analysis of the deposited data

Results flagged for a closer look

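Of 328 sets of 5 libraries examined (the level of a named gene in 1 group), 7 held 1 library far from the other 4 by Dixon's test at the 95% level, where chance alone gives about 16.4. All 7 lie in the TGF-β1 and BAY group, which also gave most of the sets examined. TGF-β1 alone and solvent were examined only for the fewer genes named for the response without BAY. The libraries with BAY alone were not examined. The 7 are therefore no sign that outlying libraries are particular to this group. PMEPA1 had replicate 5 with 1163 CPM against 1134 to 1139 CPM in the other 4, and TGFB2 had replicate 3 with 192 CPM against 170.0 to 175 CPM. The others were below 1 CPM: ACVRL1 had replicate 3 with 0.394 CPM against 0.614 to 0.676 CPM, NPR3 replicate 2 with 0.103 CPM against 0.166 to 0.192 CPM, PDE2A replicate 2 with 0.844 CPM against 0.443 to 0.552 CPM, SFRP4 replicate 1 with 0.446 CPM against 0.196 to 0.213 CPM and THY1 replicate 3 with 0.0338 CPM against 0 CPM in each of the others. Leaving out the library concerned kept the direction and the call of each of these genes.

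The response to TGF-β1 differed between cells with and without BAY for 4487 genes by the interaction test. It was more positive with BAY, as the difference of the log2 fold changes, for CHL1 (4.29), CEMIP (3.25), KIF26B (3.22), ADCY8 (2.98), FOSB (2.71), ANOS1 (2.65), FAM43A (2.64), SLC7A11 (2.51), TGFB2 (2.34), IL7R (2.21), MMP10 (2.21), STC2 (2.04) and DKK3 (1.91). It was less positive for DNER (-6.37), CACNA1H (-3.06), P2RY6 (-2.57), IL11 (-2.46), DACT1 (-2.38), SPTLC3 (-2.18), AKAP12 (-2.15), MIR4500HG (-1.98) and RRM2 (-1.80). All 22 kept their direction and their call under every alternative that was run for the interaction.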

How the results depend on the processing

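In the response with BAY the number of called genes ran from 12805 to 13666 when 1 library was left out, the lowest without replicate 2 of BAY alone, and from 13443 (only the libraries compared) to 14835 (subset 1) under the other alternatives. Of 4876 values of 287 named genes under these alternatives, 4771 kept their direction and their side of the threshold, 67 were no longer called, 17 were newly called and 21 changed sign. The interaction count ran from 3587 to 4717 when 1 library was left out and was 3576 with no filter, 5121 with DESeq2 and 7100 with the libraries of subset 1, where 3562 were less positive. The causes of these shifts were not tested. For the response with BAY, libraries with the same number were not taken as pairs: their deviations from the group means correlated at 0.03, 0.04 and 0.08 between TGF-β1 with BAY and BAY alone. Still, 6 of 6 libraries correlated best with their own number, a hint from the data and not the design. Between TGF-β1 with and without BAY, which both enter the interaction, all 5 same-numbered pairs correlated, at 0.25 to 0.48, and between TGF-β1 with BAY and solvent the correlations were -0.20 to 0.32. Both TGF-β1 groups split into subsets at the same numbers, and their libraries with different numbers were not compared. These correlations therefore cannot tell pairing from the subsets. With the replicate number as a block, 14480 genes were called with BAY and 5922 in the interaction. The block newly called ACVR2B, SMAD5 and THBS1 (-0.43) with BAY and FAM43A without BAY, and ended the calls of ATF6 (-0.086) and CACNA1H (-0.22) with BAY. The values that changed sign were all small. On total counts these were AKAP12 (-0.17), BMPR1A (-0.15), KEAP1 (-0.0031) and SMAD4 (-0.20), and DKK3 without BAY (-0.023). With the replicate block they were SMAD4 (-0.017) and TGFB3 (0.046). TGFB3 also had 0.016 with DESeq2, 0.015 with RLE scaling, 0.0019 with all 24 libraries and 0.26 with subset 1. SMAD4 had -0.055 with subset 1, and with subset 2 AKAP12 had -0.18 and IRAG1 0.12. Leaving out 1 library gave -0.043 to 0.13 for AKAP12, -0.016 to 0.022 for SMAD4 and -0.083 to 0.080 for TGFB3. Leaving out 1 library ended the calls, with these log2 fold changes, of ACVR2A without BAY replicate 1 (-0.23), ADORA1 without TGF-β1 and BAY replicate 1, 3, 4, 5 or BAY replicate 1, 2 (-0.17 to -0.14), ATF6 without TGF-β1 and BAY replicate 5 or BAY replicate 2, 3 (-0.088 to -0.067), CACNA1H without TGF-β1 and BAY replicate 1, 3, 5 or BAY replicate 1, 2, 3 (-0.29 to -0.20), COL4A4 without TGF-β1 and BAY replicate 4, 5 or BAY replicate 2 (-1.15 to -1.08), IL11RA without TGF-β1 and BAY replicate 2, 3 or BAY replicate 1, 3 (-0.33 to -0.31), LMOD1 without TGF-β1 and BAY replicate 1, 4 or BAY replicate 1, 2, 3 (-1.90 to -1.50), MT-ND6 without TGF-β1 and BAY replicate 1, 2, 3, 4 or BAY replicate 1, 2, 3 (0.22 to 0.29), SMAD1 without TGF-β1 and BAY replicate 5 or BAY replicate 1 (-0.18 to -0.16), THY1 without BAY replicate 1, 2 (-2.80 to -2.46) and TIMP1 without BAY replicate 2, 3 (0.19 to 0.20). Depth limits genes near 0 counts, whose fitted fold changes depend on the prior count.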
